A study of Homo sapiens with 4 samples.

Results

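The genes described here are those of the HLA class II antigen presentation system, namely the 6 chains of the classical presenting molecules (HLA-DRA, HLA-DRB1, HLA-DPA1, HLA-DPB1, HLA-DQA1 and HLA-DQB1), both chains of the peptide exchange factor HLA-DM (HLA-DMA and HLA-DMB), the invariant chain CD74 and the class II transactivator CIITA. They were chosen by gene symbol, with earlier results of these data known, and are 10 of the 32673 genes in the expression table. Each symbol had 1 row, and all 10 passed the filter on low values that left 15519 genes to be tested. RNA sequencing was used to compare a pair of cell lines with 2 libraries each, to learn how gene expression differs between imatinib-sensitive and imatinib-resistant leukaemia cells. TF1-BA cells are TF1 cells, a human erythroleukaemia line that depends on a cytokine, which carry the p210 form of BCR-ABL from a retrovirus and are sensitive to imatinib, the inhibitor of the BCR-ABL kinase. TF1-BAR cells were derived from TF1-BA cells by long continuous culture in imatinib and are resistant to it. All 4 libraries therefore come from cells with BCR-ABL, and the labels give GM-CSF in the medium of all of them, with 2 µM imatinib in the culture of the TF1-BAR cells. Their libraries also carry a vector title, so that resistance, the drug and a vector cannot be told apart in any difference given here. Each line is 1 derivation, and nothing in the labels says that the libraries of a line are separate cultures, so that the p-values measure only the spread between these libraries.

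Class II molecules are pairs of an alpha and a beta chain that show peptides from endosomes to CD4+ T cells. The invariant chain CD74 holds the groove of new molecules and guides them to endosomes, where proteases trim it and HLA-DM swaps its last fragment for a peptide. Transcription of the HLA genes of the set depends on CIITA, which does not bind DNA itself but joins RFX, NF-Y and CREB proteins. These proteins sit on a conserved run of short elements just upstream of the HLA genes. The molecules are known from B cells, dendritic cells, macrophages and activated T cells, and they are also found on myeloid progenitors and many myeloid leukaemias.

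The promoter-proximal stretches of 6 of the genes are shown because these are the sequences on which the CIITA-dependent complex is known to assemble, and these 6 show how the letters searched for differ between the genes. The stretches were taken from RefSeq (GRCh38.p14), run from 130 to 16 bases upstream of the annotated start site, and are written 5′ to 3′ on the strand of the gene. Capitals mark the letters of CTGATGATG, of CTGATTGG, and of the pentamer ATTGG, whose reverse complement reads CCAAT. The pentamer is contained in the motif of 8 letters.
HLA-DRB1 (chr6:32589864-32589978, minus strand): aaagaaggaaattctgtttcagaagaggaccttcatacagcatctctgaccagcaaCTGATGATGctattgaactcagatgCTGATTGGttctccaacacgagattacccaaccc
HLA-DMA (chr6:32953113-32953227, minus strand): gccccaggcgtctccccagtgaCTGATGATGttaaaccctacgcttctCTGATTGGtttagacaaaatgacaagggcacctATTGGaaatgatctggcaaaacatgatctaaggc
HLA-DMB (chr6:32941044-32941158, minus strand): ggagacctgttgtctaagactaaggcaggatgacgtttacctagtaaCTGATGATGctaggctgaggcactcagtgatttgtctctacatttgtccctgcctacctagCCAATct
HLA-DQB1 (chr6:32666673-32666787, minus strand): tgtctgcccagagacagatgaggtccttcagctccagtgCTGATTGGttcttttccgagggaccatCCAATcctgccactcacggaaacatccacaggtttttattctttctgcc
HLA-DQA1 (chr6:32637276-32637390, plus strand): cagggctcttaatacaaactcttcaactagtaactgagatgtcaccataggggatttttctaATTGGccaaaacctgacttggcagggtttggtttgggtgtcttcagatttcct
CD74 (chr5:150412926-150413040, minus strand): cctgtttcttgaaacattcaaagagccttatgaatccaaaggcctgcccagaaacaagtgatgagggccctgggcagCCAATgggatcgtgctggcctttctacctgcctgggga

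Promoter entries were found for 8 of the 10 genes, in 9 entries, since HLA-DPA1 has 2 start sites. HLA-DRA and CIITA have no sequence shown, and the entries of HLA-DPA1 and HLA-DPB1 were searched but are not printed. The motifs were searched on both strands over the 250 bases upstream of the start in all 35116 entries. CTGATTGG, which holds the letters read by NF-Y, occurred in 3.81% of all entries and in 3 of the 9 entries here, those of HLA-DRB1, HLA-DMA and HLA-DQB1. CTGATGATG, chosen after these sequences were seen, occurred in 0.222% of all entries and in those of HLA-DRB1, HLA-DMA and HLA-DMB. The shorter ATTGG occurred in 32.0% of all entries and in 7 of the 9, all except both entries of HLA-DPA1, which held none of the motifs. In HLA-DRB1, 19 bases lay between CTGATGATG and ATTGG, and in HLA-DMA 20 bases, while HLA-DMB had a CCAAT 52 bases away. These are matches of letters and not measured binding sites.

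No gene of the set was differentially expressed between the cell lines by the thresholds used, a log2 fold change of 1 or more in size with a Benjamini-Hochberg adjusted p under 0.05 in limma, where 1.69% of all genes tested were called lower and 3.05% higher in the TF1-BAR cells. At the adjusted p alone, 5 of the 10 genes were lower in the TF1-BAR cells (HLA-DPB1, HLA-DQA1, HLA-DQB1, HLA-DMA and CIITA) and 0 were higher, where 10.5% of all genes were lower and 16.3% higher. By unadjusted p under 0.05, 6 were lower and 0 higher, against 16.7% and 25.5% of all genes, 0 of them with a fold change past the threshold, and limma voom on recovered fragments called 1, HLA-DQA1. In 7 of the 10 genes both TF1-BAR libraries lay below both TF1-BA libraries, against 28.4% of all genes, and in 0 genes above, against 40.9%. The median log2 fold change of the 10 was −0.40, and that of all genes tested was 0.07. The 5 lower genes rest on all 4 libraries. Their count fell to 0 without TF1-BA replicate 1, without TF1-BA replicate 2 or without TF1-BAR replicate 2, and to 2 (HLA-DQA1 and HLA-DMA) without TF1-BAR replicate 1, although each of the 5 stayed below 0 in all these fits.

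**Figure D1:**
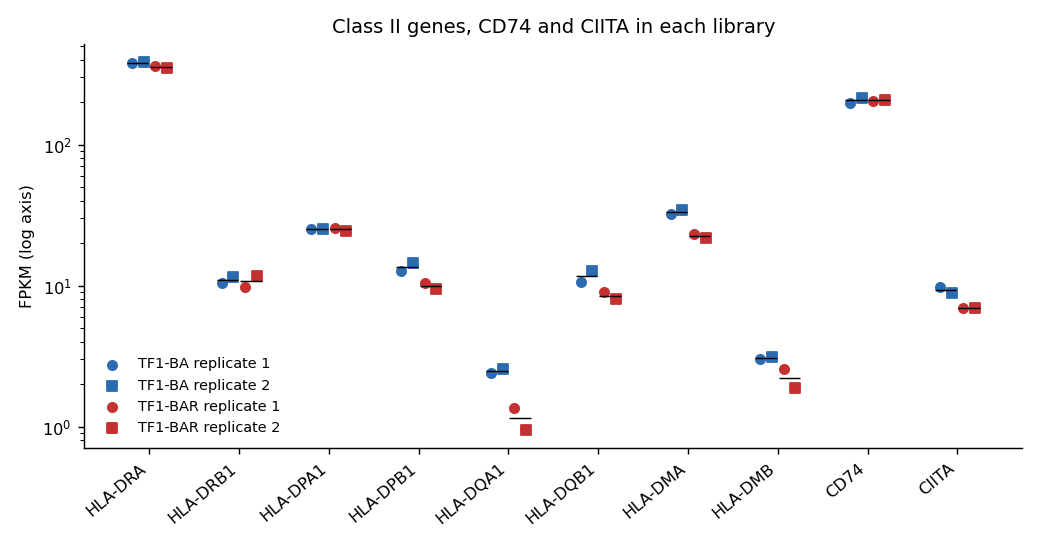
FPKM (fragments scaled to gene length and library size, log axis) of the 10 genes in each library, with blue points for TF1-BA cells, red points for TF1-BAR cells, circles and squares for replicates 1 and 2, and black lines for the mean of a line. HLA-DRA and CD74 stood above all others, and the red points lay below the blue ones for 7 genes, all except HLA-DRB1, HLA-DPA1 and CD74.

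HLA-DRA and CD74 led the order of the levels in both lines. HLA-DRA was highest at a mean of 366 FPKM over the 4 libraries, followed by CD74 at 205 FPKM, HLA-DMA at 27.7 FPKM and HLA-DPA1 at 25.2 FPKM. HLA-DPB1, HLA-DRB1, HLA-DQB1 and CIITA followed at 11.8, 10.8, 10.1 and 8.11 FPKM, and HLA-DMB and HLA-DQA1 were lowest at 2.64 and 1.82 FPKM. HLA-DMA stood above HLA-DPA1 in the TF1-BA cells (means 33.0 and 25.3 FPKM) and below it in the TF1-BAR cells (22.5 and 25.1 FPKM). Within a line, the libraries of neighbours overlapped only for HLA-DRB1 and HLA-DQB1 in the TF1-BA cells and for HLA-DPB1 and HLA-DRB1 in the TF1-BAR cells, and HLA-DMB stayed above HLA-DQA1 in both lines. FPKM divides by a length set for each gene. The lengths recovered from the values were 6927 bases for HLA-DQA1 and 3184 bases for CD74. These are 4.40 and 1.93 times those of their MANE Select transcripts, while HLA-DPB1 and CIITA had shorter lengths, at 0.699 and 0.903 times. Per base of the MANE Select transcript, which 9 of the 10 genes have (not HLA-DPA1), CD74 (mean 395) stood beside HLA-DRA (mean 379), and HLA-DQA1 stood beside HLA-DPB1 (mean 8.22).

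HLA-DRA, the nearly invariant alpha chain that all HLA-DR molecules share, was expressed at 378 and 382 FPKM in the TF1-BA libraries, against 358 and 346 FPKM in the TF1-BAR libraries. The TF1-BAR libraries were both lower, without overlap, but the log2 fold change was only −0.11 (95% CI −0.24 to 0.02, adjusted p = 0.173 in limma). It rests on 7115 to 8721 fragments per library. Its beta partner HLA-DRB1, the polymorphic chain, had 10.4 and 11.6 FPKM in the TF1-BA libraries, against 9.71 and 11.7 FPKM in the TF1-BAR libraries. These values overlapped, with a log2 fold change of −0.04 (95% CI −0.34 to 0.27, adjusted p = 0.842). HLA-DRA was thus 36.4 and 33.0 times HLA-DRB1 in the TF1-BA libraries, against 36.9 and 29.4 times in the TF1-BAR libraries, and the ratio overlapped between the lines. The reads of HLA-DRB1 are uncertain, since HLA-DRB genes are near copies of each other and highly polymorphic. HLA-DRB5 had 4 to 6 fragments per library, HLA-DRB3 and HLA-DRB4 have no row in the table, and whether reads of this line's own alleles were mapped was not tested.

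Of the chains of HLA-DP, the beta chain was lower at the adjusted p, and whether the chains differ in their change was not tested. HLA-DPA1 was expressed at 25.2 and 25.4 FPKM in the TF1-BA libraries, against 25.8 and 24.3 FPKM in the TF1-BAR libraries, which overlapped (log2 fold change −0.01, 95% CI −0.18 to 0.16, adjusted p = 0.90). HLA-DPB1 fell from 12.8 and 14.4 FPKM to 10.4 and 9.45 FPKM, without overlap, with a log2 fold change of −0.44 (95% CI −0.68 to −0.19, adjusted p = 0.0307 in limma). The ratio of HLA-DPA1 to HLA-DPB1 was 1.97 and 1.76 in the TF1-BA libraries, against 2.49 and 2.58 in the TF1-BAR libraries. The ratios did not overlap, but an exact permutation test of 2 against 2 libraries cannot give a two-sided p below 0.33. The genes lie head to head and overlap on chromosome 6 (HLA-DPA1 at 33064569 to 33080775 on the minus strand, HLA-DPB1 at 33075926 to 33087201 on the plus strand, GRCh38). The counting was not stated to use the strand, so that reads of the shared stretch cannot be told apart.

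HLA-DQA1, the alpha chain of HLA-DQ, showed the largest fold change of the 10 genes. Its level was 2.38 and 2.58 FPKM in the TF1-BA libraries, against 1.36 and 0.952 FPKM in the TF1-BAR libraries, or 298 and 276 against 148 and 106 fragments. The log2 fold change was −0.86 (95% CI −1.27 to −0.45, adjusted p = 0.0223 in limma), and the ratio of the mean FPKM was 0.465. At this low level the pseudocount of 0.5 FPKM matters, and with a pseudocount of 0.1 FPKM, in limma voom on the fragments, or without TF1-BAR replicate 1, HLA-DQA1 was called differentially expressed. HLA-DQB1, its beta partner, fell from 10.7 and 12.6 FPKM to 8.98 and 7.99 FPKM, without overlap (log2 fold change −0.43, 95% CI −0.72 to −0.14, adjusted p = 0.0465). This call held in 7 of 15 alternatives and was lost, among others, with TPM, without the variance trend, with no filter on low values and whenever 1 library was left out. HLA-DQA1 was 0.223 and 0.204 times HLA-DQB1 in the TF1-BA libraries, against 0.151 and 0.119 times in the TF1-BAR libraries, which did not overlap. HLA-DQ chains also have near copies, and HLA-DQA2 and HLA-DQB2 held 0 to 8 fragments per library. The summed level of the 6 presenting chains was 439 and 449 FPKM in the TF1-BA libraries, against 414 and 400 FPKM in the TF1-BAR libraries, and HLA-DRA made up between 85.2% and 86.4% of it in every library.

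HLA-DMA, the alpha chain of the peptide exchange factor, had the smallest adjusted p of the set. It fell from 31.9 and 34.1 FPKM in the TF1-BA libraries to 23.2 and 21.8 FPKM in the TF1-BAR libraries, without overlap, with a log2 fold change of −0.55 (95% CI −0.73 to −0.36, adjusted p = 0.0108 in limma) and a ratio of the mean FPKM of 0.680. In the file the gene spans 32948613 to 32969094 on the minus strand of chromosome 6 and overlaps BRD2, a bromodomain gene read from the other strand. BRD2 stood at 35.2 and 35.7 FPKM against 40.7 and 45.3 FPKM, which is the opposite direction. HLA-DMB, the beta chain, had 3.01 and 3.13 FPKM in the TF1-BA libraries, against 2.55 and 1.88 FPKM in the TF1-BAR libraries. The groups did not overlap, and its log2 fold change of −0.40 had a confidence interval of −0.78 to −0.03 and an adjusted p of 0.103. The TF1-BAR libraries differed between themselves at this gene, at 187 and 141 fragments. The ratio of HLA-DMA to HLA-DMB overlapped between the lines, at 10.6 and 10.9 against 9.10 and 11.5.

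CD74 showed no detectable difference between the lines. It had 197 and 213 FPKM in the TF1-BA libraries, against 204 and 206 FPKM in the TF1-BAR libraries, from 10251 to 11338 fragments each. The TF1-BAR values lay between the TF1-BA values, and the 95% CI of the log2 fold change ran from −0.16 to 0.16 (adjusted p = 0.996 in limma), so that a change past the fold threshold lies far outside the interval. CD74 is on chromosome 5 (150401637 to 150412929, minus strand), away from the HLA genes.

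CIITA, the transactivator, is on chromosome 16 (10866222 to 10932281, plus strand) and was lower in the TF1-BAR cells. Its level was 9.76 and 8.83 FPKM in the TF1-BA libraries, against 6.91 and 6.94 FPKM in the TF1-BAR libraries, without overlap, from 1580 to 2555 fragments. The log2 fold change was −0.40 (95% CI −0.61 to −0.18, adjusted p = 0.0286 in limma), and the ratio of the mean FPKM was 0.745. The fall of CIITA thus stood beside a fall of HLA-DPB1, HLA-DQA1, HLA-DQB1 and HLA-DMA and beside levels of HLA-DRB1, HLA-DPA1 and CD74 that overlapped between the lines. Its part in either was not tested.

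**Figure D2:**
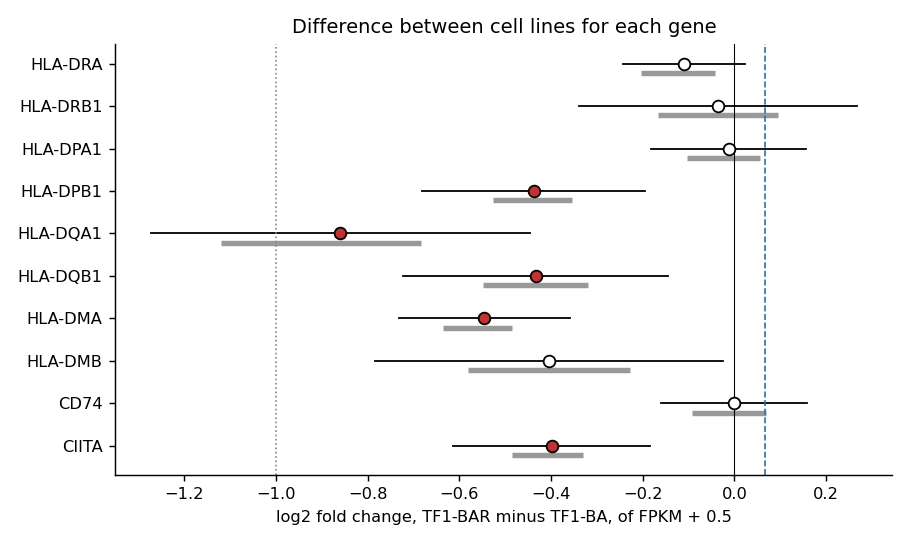
Log2 fold change of FPKM + 0.5 for the 10 genes, TF1-BAR minus TF1-BA, with black bars for the 95% confidence interval, red points where the adjusted p was under 0.05 and white points where it was not, and grey bars for the range of the fold change over 15 alternative fits. The dotted line marks the fold threshold of −1 and the dashed line the median of all genes (0.07), and the grey bars crossed 0 only for HLA-DRB1, HLA-DPA1 and CD74, which turned positive when FPKM was rescaled to TPM.

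The genes whose pattern over the 4 libraries was nearest to that of HLA-DRA were MTMR10, EIF4G2, PDCD5, RSPRY1 and BAX, by the sum of squared differences of centred log2(FPKM + 0.5) over all genes tested outside the set. Each of the 5 had a log2 fold change of −0.11, like HLA-DRA. With only 4 libraries many genes share such a pattern.

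The HLA genes of the set lie together on chromosome 6, in a stretch of 799 kb from BTNL2 to COL11A2 (32393963 to 33192499, GRCh38) that holds 30 genes of the table. Of the 18 that were tested, 0 were called in either direction, 11 were lower at an adjusted p under 0.05 and 0 were higher, which is 61.1% lower against 12.0% of the 831 tested genes of chromosome 6 and 10.5% of all genes. Without the 8 HLA genes of the set, 7 of the other 10 tested genes were lower, namely HLA-DQB1-AS1, TAP2, PSMB8, PSMB8-AS1, PSMB9, TAP1 and HLA-DOA, which are named after their values were seen. TAP1 and TAP2 form the peptide pump of class I presentation, and PSMB8 and PSMB9 are subunits of the immunoproteasome. TAP1 was at 4.18 and 4.17 FPKM in the TF1-BA cells against 2.51 and 2.53 FPKM in the TF1-BAR cells, without overlap (log2 fold change −0.63, adjusted p = 0.0115 in limma). The count of 11 fell to 0 without TF1-BA replicate 1 or 2, to 7 without TF1-BAR replicate 1 and to 1 without TF1-BAR replicate 2. The median log2 fold change of the stretch was −0.47, and that of all tested genes of chromosome 6 was 0.06. Several of these genes overlap, TAP1 and PSMB8-AS1 with PSMB9 and with each other, PSMB8-AS1 and PSMB9 with PSMB8, and HLA-DQB1-AS1 with HLA-DQB1, so that they do not count as separate genes where the strand was not used.

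**Figure D3:**
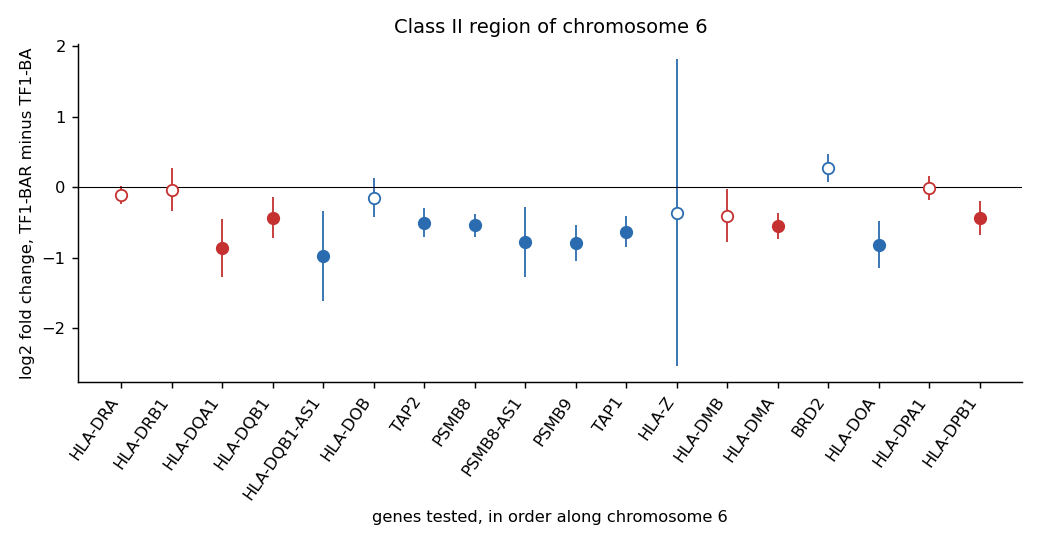
Log2 fold change with its 95% confidence interval for the 18 tested genes of the class II stretch, in their order along chromosome 6, with red for the genes of the set and blue for their neighbours, and filled points where the adjusted p was under 0.05. All except BRD2 lay below 0 as fitted here, with HLA-DRB1 and HLA-DPA1 above 0 after rescaling to TPM, and the wide interval is HLA-Z, which was listed at 0 in 2 of the 4 libraries.

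Among the other class II genes, 3 of 11 in the table passed the filter, 2 were lower at the adjusted p and 0 higher, where 10.5% of all genes were lower. HLA-DOA, a chain of HLA-DO, which restrains HLA-DM, fell from 2.24 and 2.37 FPKM to 0.996 and 1.19 FPKM (log2 fold change −0.82, adjusted p = 0.0152 in limma). Its partner HLA-DOB had 4.12 and 4.32 FPKM against 3.45 and 4.08 FPKM, with an adjusted p of 0.352. The third was HLA-DQB1-AS1, with 12 and 6 fragments against 2 and 2. The 8 genes that did not pass, mostly pseudogenes and HLA-DRB5, held at most 8 fragments in any library.

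Of the 7 tested factors that bind class II promoters, 2 were lower and 1 higher at the adjusted p, where 10.5% and 16.3% of all genes were, and 0 were called. RFXANK, a subunit of the RFX complex, fell from 32.3 and 32.6 FPKM to 23.8 and 26.9 FPKM (log2 fold change −0.35, adjusted p = 0.0349 in limma). NFYA, a subunit of NF-Y, had 22.1 and 22.3 FPKM against 21.3 and 18.9 FPKM (adjusted p = 0.246). Of the other NF-Y subunits, named after their values were seen, NFYB was lower (log2 fold change −0.36, adjusted p = 0.0464) and NFYC higher (0.36, adjusted p = 0.0451), and these and RFXANK lost that call under at least 1 of 3 other scalings.

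Of the coactivators and relatives of CIITA, 2 of 7 tested genes were lower and 1 higher at the adjusted p, where 10.5% and 16.3% of all genes were. NLRC5, the relative of CIITA that drives class I genes, was the only gene of all pathway lists called lower. It fell from 3.70 and 3.47 FPKM to 0.999 and 1.14 FPKM, without overlap, with a log2 fold change of −1.38 (adjusted p = 0.00514 in limma), a call that was lost without either TF1-BA library. SMARCA4, an ATPase of chromatin remodelling, fell by 0.25 on the log2 scale (adjusted p = 0.0495, a call lost with TPM), and CARM1, an arginine methyltransferase, had a log2 fold change of −0.03 (adjusted p = 0.823).

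Of the 10 tested regulators upstream of CIITA, 2 were higher (SPI1 and USF1), 1 was lower (JAK2) and 7 did not pass, shares near those of all genes (16.3% higher and 10.5% lower). USF1 lost its call under upper-quartile scaling. JAK1, a kinase of the interferon receptors, had 41.8 and 43.8 FPKM against 41.9 and 41.7 FPKM, and SPI1, the myeloid transcription factor PU.1, rose from 30.2 and 32.4 FPKM to 42.3 and 50.8 FPKM (log2 fold change 0.56, adjusted p = 0.0226 in limma). JAK2, named after its values were seen, fell from 15.4 and 13.2 FPKM to 8.75 and 7.40 FPKM (log2 fold change −0.79, adjusted p = 0.0139).

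The lysosomal proteases and the reductase of the pathway included 9 tested genes, of which 4 were lower and 1 higher at the adjusted p (44.4% and 11.1%, against 10.5% and 16.3% of all genes). CTSL, a protease that cleaves the invariant chain in some cells, fell from 47.1 and 48.7 FPKM to 34.2 and 31.9 FPKM (log2 fold change −0.53, adjusted p = 0.00981 in limma). CTSB, another cysteine protease, rose from 18.4 and 18.7 FPKM to 25.1 and 27.9 FPKM (0.50, adjusted p = 0.0150). CTSS, the main protease of the invariant chain in many antigen-presenting cells and named after its values were seen, fell by 0.54 on the log2 scale (adjusted p = 0.0131). The class II ubiquitin ligases MARCHF1 and MARCHF8 had log2 fold changes of −0.36 and −0.04, with adjusted p-values of 0.195 and 0.822.

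Of the 5 costimulatory molecules 3 were tested, and 2 of them were higher and 0 lower at the adjusted p, where 16.3% of all genes were higher. CD40, the receptor for T cell help, was called higher, at 5.72 and 6.29 FPKM in the TF1-BA libraries, against 12.6 and 13.8 FPKM in the TF1-BAR libraries (log2 fold change 1.08, adjusted p = 0.00534 in limma). That call was lost without either TF1-BA library and under upper-quartile scaling. CD83, which stabilises surface class II molecules, rose from 4.05 and 3.75 FPKM to 5.98 and 7.32 FPKM (0.69, adjusted p = 0.0190). CD80 and CD86 held 5 to 16 fragments per library and were not tested.

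Of the interferon gamma induced genes, 6 of 10 tested were lower and 0 higher at the adjusted p, where 10.5% of all genes were lower, with a median log2 fold change of −0.59. TAP1, PSMB8 and PSMB9 are 3 of these 6 and were already counted in the stretch of chromosome 6, where they overlap each other or PSMB8-AS1. B2M, the light chain of class I molecules, fell from 99.5 and 99.4 FPKM to 58.4 and 61.4 FPKM (log2 fold change −0.73, adjusted p = 0.00476 in limma). ICAM1, an adhesion molecule, had 33.6 and 32.6 FPKM against 34.2 and 35.5 FPKM (adjusted p = 0.416). Over all pathway lists, 17 of 51 tested genes were lower (33.3%, against 10.5% of all genes) and 7 higher (13.7%, against 16.3%) at the adjusted p, and 1 was called in each direction. All 24 kept their sign under the 3 other scalings, but 3 lost the adjusted p under upper-quartile scaling, 4 with TPM and 2 with quantile normalization. Without TF1-BA replicate 1 or 2 these counts were 0 and 0, without TF1-BAR replicate 1 they were 11 and 7, and without TF1-BAR replicate 2 they were 7 and 1.

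**Figure D4:**
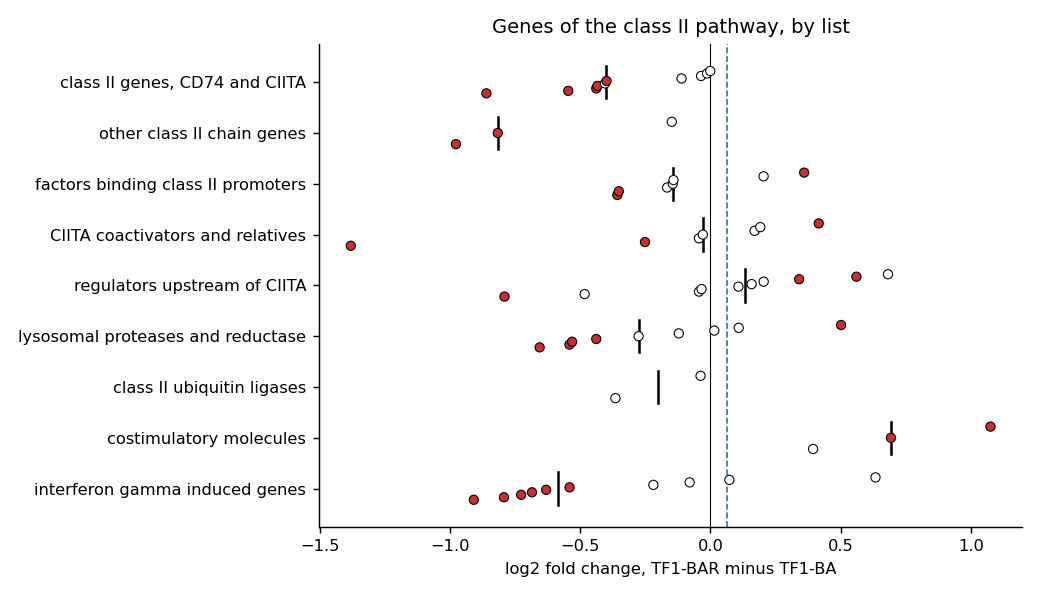
Log2 fold change of every tested gene of the class II set and of 8 lists of pathway genes, TF1-BAR minus TF1-BA, with red points where the adjusted p was under 0.05, white points where it was not, black bars for the median of each list and a dashed line for the median of all genes tested (0.07). The median was lowest for the other class II genes (−0.82, 3 tested genes). Next were the interferon gamma induced genes (−0.59) and the class II set (−0.40). It lay above 0 only for the costimulatory molecules (0.69, 3 tested genes) and the regulators upstream of CIITA (0.13). NLRC5 is the point near −1.38.

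Markers of the cell types in which class II molecules are best known were looked at in the same libraries. Of the 4 B cell markers in the table, PAX5 had at most 20 fragments, CD79B was called higher in the TF1-BAR cells (2.56 and 2.89 against 7.84 and 7.54 FPKM) and CD79A was also higher, and the summed level of the list was 5.78 and 6.49 FPKM against 12.4 and 11.8 FPKM. Of the 6 dendritic cell markers, CLEC9A, XCR1 and FLT3 had at most 5 fragments, FCER1A was called higher, and the sum was 30.1 and 28.7 against 63.1 and 61.6 FPKM. Of the 6 monocyte and macrophage markers, CD14 and CD163 had at most 2 fragments, CSF1R was called higher, LYZ had 15.1 and 13.6 against 16.5 and 15.7 FPKM, and the sum was 15.6 and 14.2 against 18.3 and 17.4 FPKM. Of the 4 T cell markers, CD3E had at most 1 fragment while CD3D was called lower, and the sum was 19.4 and 20.9 against 6.02 and 6.81 FPKM. These sums rest largely on single genes, such as FCER1A, LYZ and CD3D, and the part of these markers in the class II levels was not tested. Among the markers of TF1 cells, CD34 and KIT were called higher, and GATA1, the erythroid transcription factor, was at 65.9 to 75.4 FPKM. In bulk RNA, fewer cells that express a gene and less RNA per cell cannot be told apart.

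The libraries held between 15465497 and 18042299 fragments, as recovered from the deposited values. Over all genes, 263 were called lower and 474 higher in the TF1-BAR cells. The correlation of log2(FPKM + 0.5) across genes was 0.983 and 0.979 within the lines and 0.946 to 0.956 between them.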

How the data were processed

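The authors sequenced RNA of both cell lines as paired-end reads, mapped them to GRCh38 with TopHat2 (2.0.13) and quantified genes with Cufflinks and Cuffdiff (2.2.0), per the labels and the study's methods. The deposited values are FPKM per gene and library, and DESeq2 was the authors' test of differential expression. FPKM are not counts, so limma 3.58.1 in R 4.3.3 was used here on log2(FPKM + 0.5), with a trend of the spread on the mean level, over genes whose mean FPKM reached 0.5, with Benjamini-Hochberg adjustment over all of them. Folds are on that scale and understate changes of low genes. The thresholds were those of the study. Whole fragments were recovered from the deposited FPKM by a search for library sizes and gene lengths. Within 0.01 fragments, all 30853 genes above 0 were whole, 14816 of them at the GENCODE 44 exon length and 16037 at a fitted length. With wrong library sizes, 2 of 300 genes were whole, but only genes with many fragments in every library were tried. Since the length could be fitted freely, small fragment counts were not checked by this and are uncertain. The fragments served only for an alternative and as depth, and cover counting error only. 26 symbols turned into dates were restored by identifier. Samples were grouped by label, and 0 columns were unassigned.

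The genes of the set, the lists and the rule for named genes were chosen with earlier results of these data known. By that rule the text names the whole set, each called gene and the 2 highest genes by mean FPKM of each list, and the 5 genes most like HLA-DRA; others are marked as chosen later. Some genes of these lists are not reported here. Alternatives were other pseudocounts, filters, scalings, variance models, a replicate block, limma voom and leaving out each library. The test was tried on simulated data.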

Additional observations from a re-analysis of the deposited data

How the results depend on the processing

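Over 15 alternatives for each of the 10 genes, 111 of 150 values kept their direction and side of the threshold, 28 lost an adjusted p under 0.05, 2 gained one and 9 changed sign. The sign changed with TPM for CD74 (log2 fold change 0.068), HLA-DPA1 (0.055) and HLA-DRB1 (0.031), and with limma voom for CD74 (0.0022). With 1 library left out, CD74 ranged from −0.057 to 0.056, HLA-DPA1 from −0.054 to 0.029 and HLA-DRB1 from −0.17 to 0.096. Adjusted p-values of these 3 genes were at least 0.297 in every alternative. The 5 lower genes were below 0 in every alternative. The count of genes of the set lower at the adjusted p was 0 with no filter on low values, 2 without the variance trend, 6 with upper-quartile scaling (with HLA-DRA added, adjusted p = 0.0476) or limma voom (with HLA-DMB added, adjusted p = 0.0271), 4 with TPM (without HLA-DQB1), and 0 to 2 when 1 library was left out, which leaves a single library assumed to vary like the others. The adjusted p ranged from 0.000368 to 0.0996 for HLA-DMA and from 0.00168 to 0.193 for CIITA. Genes of the set called lower were 1 with a pseudocount of 0.1 FPKM and 1 with limma voom, 0 to 1 with 1 library left out, and 5 with no fold threshold. Replicate numbers were not shown to pair the libraries (correlation of same-numbered deviations 0.06 over genes), and with the replicate block 4 genes were lower, without HLA-DQB1.

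Over all genes, those called higher numbered 302 with a pseudocount of 1 FPKM, 180 with no filter, 741 with TPM, 770 with limma voom, 2537 with no fold threshold and 25 to 483 with 1 library left out. Those called lower numbered 134 with no filter, 1630 with no fold threshold and 17 to 300 with 1 library left out. Of the pathway genes, 0 were called higher with upper-quartile scaling, 7 with no fold threshold and 0 to 2 with 1 library left out. Called lower were 3 with a pseudocount of 0.1 FPKM, 2 each with upper-quartile scaling, TPM, quantile normalization and limma voom, 17 with no fold threshold and 0 to 2 with 1 library left out. Per MANE Select length, an alternative chosen after seeing the data, the mean ratio of HLA-DRA to CD74 was 0.960 in place of 1.78, of HLA-DQA1 to HLA-DQB1 0.251 in place of 0.174, and of HLA-DMA to HLA-DMB 7.08 in place of 10.5. The causes of these moves were not tested. The median of all genes was 0.07, and 0.14 with TPM. The lowest genes of the set rest on few fragments, 106 to 298 per library for HLA-DQA1.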
